A study of Danio rerio with 40 samples.

Results

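The 8 genes described here are rala, cd226, cst14a.2, arhgap28, abcd4, crp1, nub1 and si:ch211-234p6.5. They were selected from earlier results of the same libraries as genes on the chromosome of naglu whose counts differed between homozygous and heterozygous siblings, so that difference is a description here and carries no test. All 8 had 1 row each in the table of 32057 genes, and all 8 were among the 19668 genes that passed the filter on low counts. RefSeq's gene table placed 7 of the 8 on chromosome 24, the chromosome of naglu. The row listed as rala (ENSDARG00000016253) could not be placed, so whether it lies on chromosome 24 is not settled. RefSeq gives rala only as a synonym of ralaa, and ralaa, on chromosome 24, has a row of its own (ENSDARG00000045463).

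The study counted polyA RNA from 40 whole zebrafish brains at an age of 6 months. Its 4 groups of 10 fish were naglu A603fs/A603fs fish injected with 0.85% saline, A603fs/A603fs fish injected with 10 µg ferric citrate in that saline, and their A603fs/+ siblings given either injection, all taken 7 days after the intraperitoneal injection. Every fish therefore carried at least 1 copy of the mutant allele, and no wild-type fish enter the comparison. Each library is a different fish, and the labels give its sex and 1 of 5 home tanks. Females made up 7 of 10 homozygous saline, 5 of 10 homozygous iron, 2 of 10 heterozygous saline and 5 of 10 heterozygous iron fish. Library totals had a median of 21600000 counts in homozygous and 29900000 in heterozygous fish, and ran from 11800000 to 38500000 over single libraries.

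The gene naglu encodes alpha-N-acetylglucosaminidase, a lysosomal enzyme of heparan sulfate breakdown, and its loss in humans causes mucopolysaccharidosis type IIIB. Siblings that differ at naglu also differ in the stretch of chromosome inherited with the mutant allele. A variant in that stretch which alters the level of a neighbouring gene could separate the genotypes fish by fish, so the question asked of each member is whether its values divide by genotype in every fish. Levels below are log2 CPM, the log2 of counts scaled to the TMM-adjusted total of their library, with a prior count of 2. Differences are log2 fold changes, homozygous over heterozygous, averaged over both treatments, from edgeR's quasi-likelihood fit with terms for sex and home tank, and a gene is called where its Benjamini-Hochberg adjusted p over all 19668 genes was under 0.05.

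The targeted gene itself did not separate the genotypes. Its lowest, median and highest log2 CPM were 1.49, 1.91 and 2.63 in homozygous fish, against 1.41, 1.87 and 2.63 in heterozygous fish, and naglu had a log2 fold change of 0.13 (SE 0.13, n = 20 per genotype, edgeR adjusted p = 0.604). Counts per gene do not tell the mutant from the normal transcript, so naglu does not check the labels.

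The library labelled heterozygous saline 5 and the library labelled heterozygous iron 5 went against their labels in an earlier analysis. Some values, such as fish by fish comparisons, are given with these 2 doubted libraries and, over the other 38 fish, without them. Log2 fold changes, cell marker levels and counts of called genes include both doubted libraries unless stated otherwise. Without them, the averaged genotype comparison called 1637 genes, against 847 with them. The log2 fold change without them was -0.74 for cd226, against -0.66, and 0.43 for abcd4, against 0.34. Over 1275 genes off chromosome 24 that were called without those 2 libraries, 54.9% to 91.5% lay on the homozygous side of the midpoint in the 20 homozygous fish, and 6.04% to 49.7% did so in the other 18 heterozygous fish. The 38 fish chose those genes and set the midpoints, so the gap between the ranges is a description. Neither doubted library had a part in that choice of genes, but both were doubted on earlier results of these same counts. Their own places are therefore no independent check of the labels. The library labelled heterozygous iron 5 had 90.4% on the homozygous side. The library labelled heterozygous saline 5 had 51%, between the ranges of the genotypes.

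Of the 8 members, 5 were lower in homozygous fish. The steepest difference was in crp1 (ENSDARG00000071454), a pentraxin of the C-reactive protein family, the secreted pattern-recognition proteins of the innate response. It had a lowest, median and highest log2 CPM of 6.23, 6.86 and 7.29 in homozygous saline fish and 6.16, 6.74 and 7.13 in homozygous iron fish, against 6.28, 7.63 and 8.21 in heterozygous saline and 6.80, 7.67 and 8.15 in heterozygous iron fish. The log2 fold change of crp1 was -0.80 (SE 0.13), a level 0.573 times that of heterozygous fish. Every homozygous fish but homozygous saline 1 lay below the midpoint of 7.23, and of the heterozygous fish only the libraries labelled saline 3, saline 5 and iron 5 did. Without the libraries labelled saline 5 and iron 5, the lowest heterozygous value was 6.99, and 98.1% of the 360 pairs of 1 homozygous and 1 heterozygous fish ran in the same direction. Zebrafish carry several related crp genes, so reads shared between copies make its absolute level uncertain.

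The gene arhgap28 (ENSDARG00000101350) encodes a GTPase-activating protein, of the kind that switches small GTPases off. It was the lowest-counted member, with 30 to 181 counts in a library and a median of 59. Its log2 CPM ran 0.38, 1.05 and 1.66 (lowest, median, highest) in homozygous and 1.06, 1.77 and 2.51 in heterozygous fish, a log2 fold change of -0.73 (SE 0.13). In 94.2% of the 400 possible pairs the homozygous fish was the lower one, the highest share among the members with all 40 fish. This share rose to 97.8% of 360 pairs without the libraries labelled heterozygous saline 5 and iron 5, which had 1.16 and 1.06 log2 CPM, the lowest of their groups.

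Next came cd226 (ENSDARG00000045391), which in mammals encodes an activating receptor of T and NK cells that binds nectin-family ligands. Its log2 CPM was 2.57, 3.15 and 3.72 in homozygous and 2.86, 3.88 and 4.42 in heterozygous fish, a log2 fold change of -0.66 (SE 0.10). The libraries labelled heterozygous saline 5, at 2.86, and heterozygous iron 5, at 3.04, were the lowest 2 of their genotype. Without them the lowest heterozygous value was 3.40, and 98.6% of pairs ran in the same direction, the highest share of any member. The genotypes still met: homozygous saline 5 at 3.72 and homozygous iron 4 lay on the heterozygous side, and heterozygous iron 9 on the homozygous side.

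The gene si:ch211-234p6.5 (ENSDARG00000071460) is annotated as protein-coding without a gene name. Its log2 CPM was 3.45, 3.90 and 4.35 in homozygous and 3.57, 4.42 and 4.91 in heterozygous fish, with a log2 fold change of -0.52 (SE 0.10). Among all 40 fish 89.8% of pairs and without the doubted libraries 95.3% of pairs had the homozygous fish lower. Its lowest heterozygous value was again the library labelled saline 5.

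For the rala row, counted for a Ral GTPase that in mammals ties Ras signalling to the exocyst, log2 CPM was 4.58, 4.91 and 5.29 in homozygous and 4.84, 5.37 and 5.70 in heterozygous fish. The log2 fold change was -0.39 (SE 0.06), and 90.8% of pairs, or 95.8% without the doubted libraries, had the homozygous fish lower. The second row of that name did not follow it: ralaa had 5.55 to 6.09 log2 CPM in homozygous fish and 5.30 to 6.18 in heterozygous fish, with a log2 fold change of 0.10 (SE 0.06, edgeR adjusted p = 0.368). Reads shared between these related genes could be split unevenly between the 2 rows.

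The remaining members, 3 of 8, were higher in homozygous fish. The gene nub1 (ENSDARG00000061417) encodes a protein that in mammals delivers the ubiquitin-like modifier NEDD8 to the proteasome. Its log2 CPM was 2.57, 3.28 and 3.80 in homozygous and 1.94, 2.52 and 3.72 in heterozygous fish, a log2 fold change of 0.60 (SE 0.15). The split was the loosest of the set, with 84.0% of pairs in its direction, or 87.5% without the doubted libraries. The libraries labelled heterozygous iron 5, iron 2 and saline 9 lay on the homozygous side, while the library labelled heterozygous saline 5 did not.

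The gene abcd4 (ENSDARG00000061770) encodes an ABC transporter that in humans carries cobalamin, vitamin B12, out of the lysosome. It had 3.36, 3.73 and 4.16 log2 CPM in homozygous and 2.88, 3.31 and 4.06 in heterozygous fish, a log2 fold change of 0.34 (SE 0.08). For abcd4 10 fish lay on the other genotype's side of the midpoint, 5 of each genotype, more than for any other member.

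The gene cst14a.2 (ENSDARG00000045352) belongs to the cystatins, inhibitors of cysteine proteases such as the lysosomal cathepsins. Its log2 CPM was 4.62, 4.90 and 5.18 in homozygous and 4.25, 4.52 and 5.22 in heterozygous fish, a log2 fold change of 0.34 (SE 0.07). After saline its groups did not overlap: the homozygous fish ran from 4.79 up to 5.18 and the heterozygous fish from 4.25 up to 4.76, while 39 of all 19668 genes (0.198%) had no overlap between these groups. After iron they did overlap: the libraries labelled heterozygous iron 2, at 5.22, and iron 5, at 5.08, lay above most homozygous iron fish, and homozygous iron 5, at 4.62, lay below heterozygous iron 1 and iron 3.

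**Figure D1:**
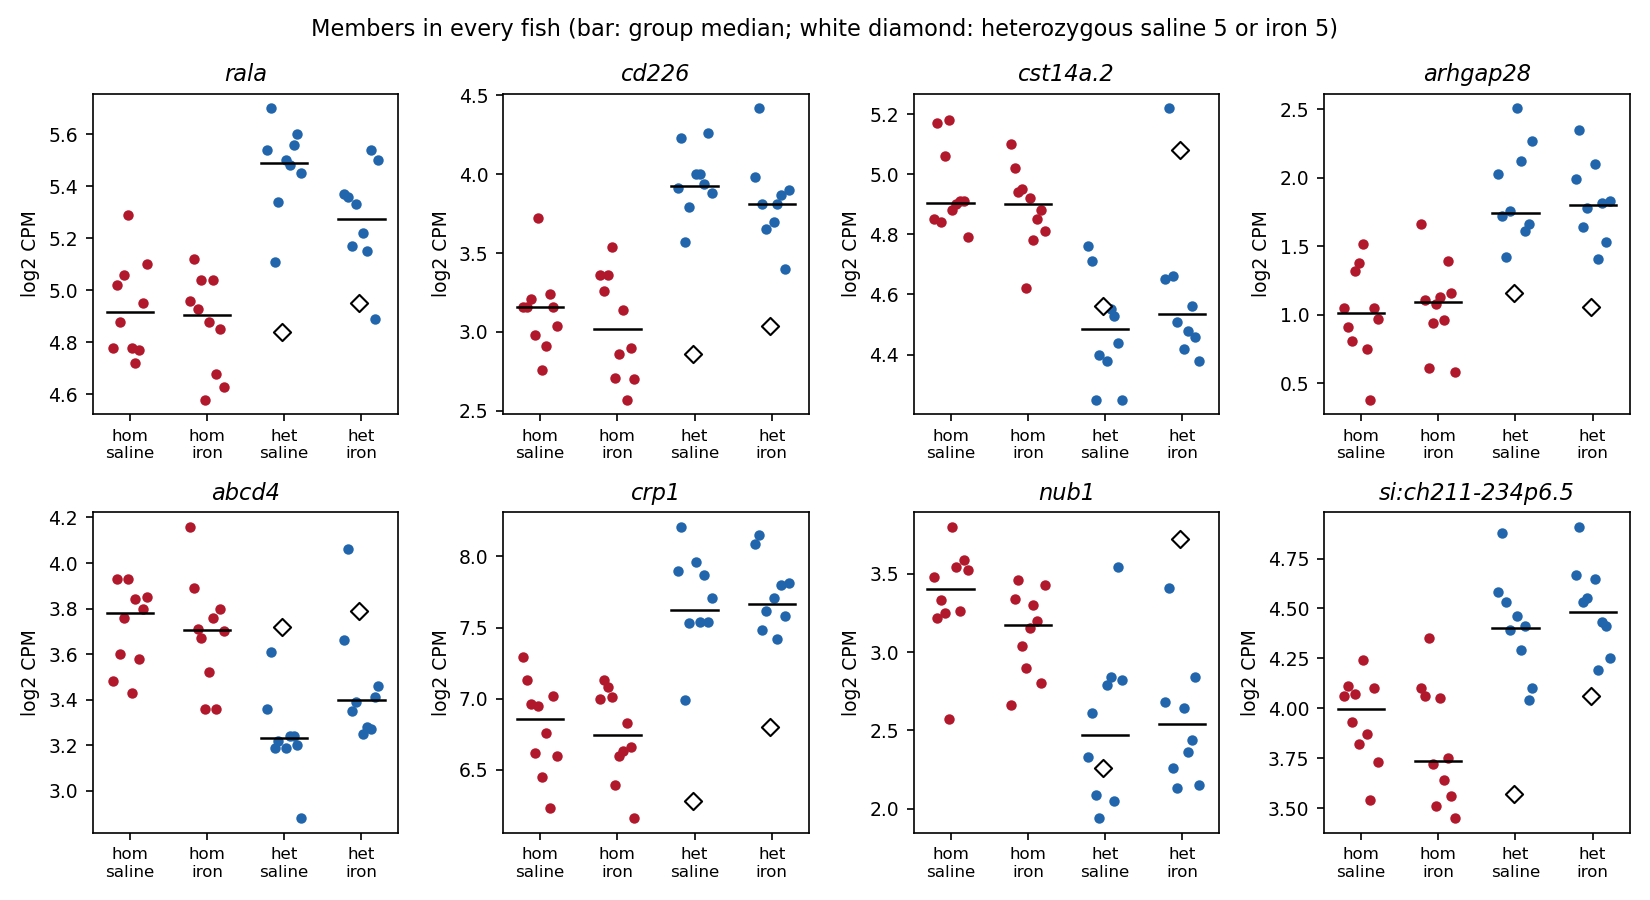
Log2 CPM of each member (vertical axis) in every fish of the 4 groups, with hom for homozygous and het for heterozygous; bars are group medians and white diamonds are the library labelled heterozygous saline 5 and the library labelled heterozygous iron 5. Homozygous medians lie below heterozygous ones for 5 members and above for 3, and each member has fish of both genotypes at the same level, at crp1 for example between 6.28 and 7.29.

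No member divided the genotypes completely. With all 40 fish 84.0% to 94.2% of pairs ran in a member's direction, and 4 to 10 fish per member lay on the other side of the midpoint between the genotype medians. Without the libraries labelled heterozygous saline 5 and iron 5 the shares were 87.5% to 98.6%, and 2 to 7 fish per member remained on the other side. An earlier analysis of these counts placed both libraries with the homozygous fish, so leaving them out favours higher shares and less overlap. As background, 0 of 19668 genes (0%) had genotypes that did not overlap with all 40 fish, and 20 (0.102%) had none that overlapped among the 38. None of those 20 was a member. Chromosome 24 holds 2.65% of placed tested genes, so it says little that the 17 whose chromosome is known lay elsewhere. They included lysosomal genes such as hexb on chromosome 5 (log2 fold change 0.59), the fucosidase gene fuca1 on 19 (0.45) and the protease gene ctsd on 18 (0.35), named after their values were seen. Set against every tested gene by the share of pairs in 38 fish, cd226 and crp1 had 45 and 55 genes above them, while abcd4 and nub1 had 441 and 521. The members were chosen by this difference, so their high places are given only as a description.

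Fish by fish, most members lay on the side of the labelled genotype, with exceptions given below. This is a description, because the genotype difference in these same libraries chose the members. The 20 homozygous fish and the 18 heterozygous fish without the doubted libraries also set the midpoints and the scale used here. Their own places are therefore no test of how well the members tell the genotypes apart. Homozygous fish had 5 to 8 members on the homozygous side, with all 8 there in 11 of the 20 fish. The other 18 heterozygous fish had 0 to 3, with 0 in 9 of them. The library labelled heterozygous iron 5 had all 8 and the library labelled heterozygous saline 5 had 6, all but nub1 and cst14a.2. On a scale with 0 at the median of the 18 heterozygous fish and 1 at the homozygous median, the median position over the members was 0.70 to 1.57 in homozygous fish and -0.23 to 0.33 in those 18, while the 2 doubted libraries stood at 1.05 and 1.07. The fish on the other side differed between members. Homozygous saline 5 lay there for rala, cd226 and nub1, and homozygous iron 5 for cst14a.2, abcd4 and nub1.

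**Figure D2:**
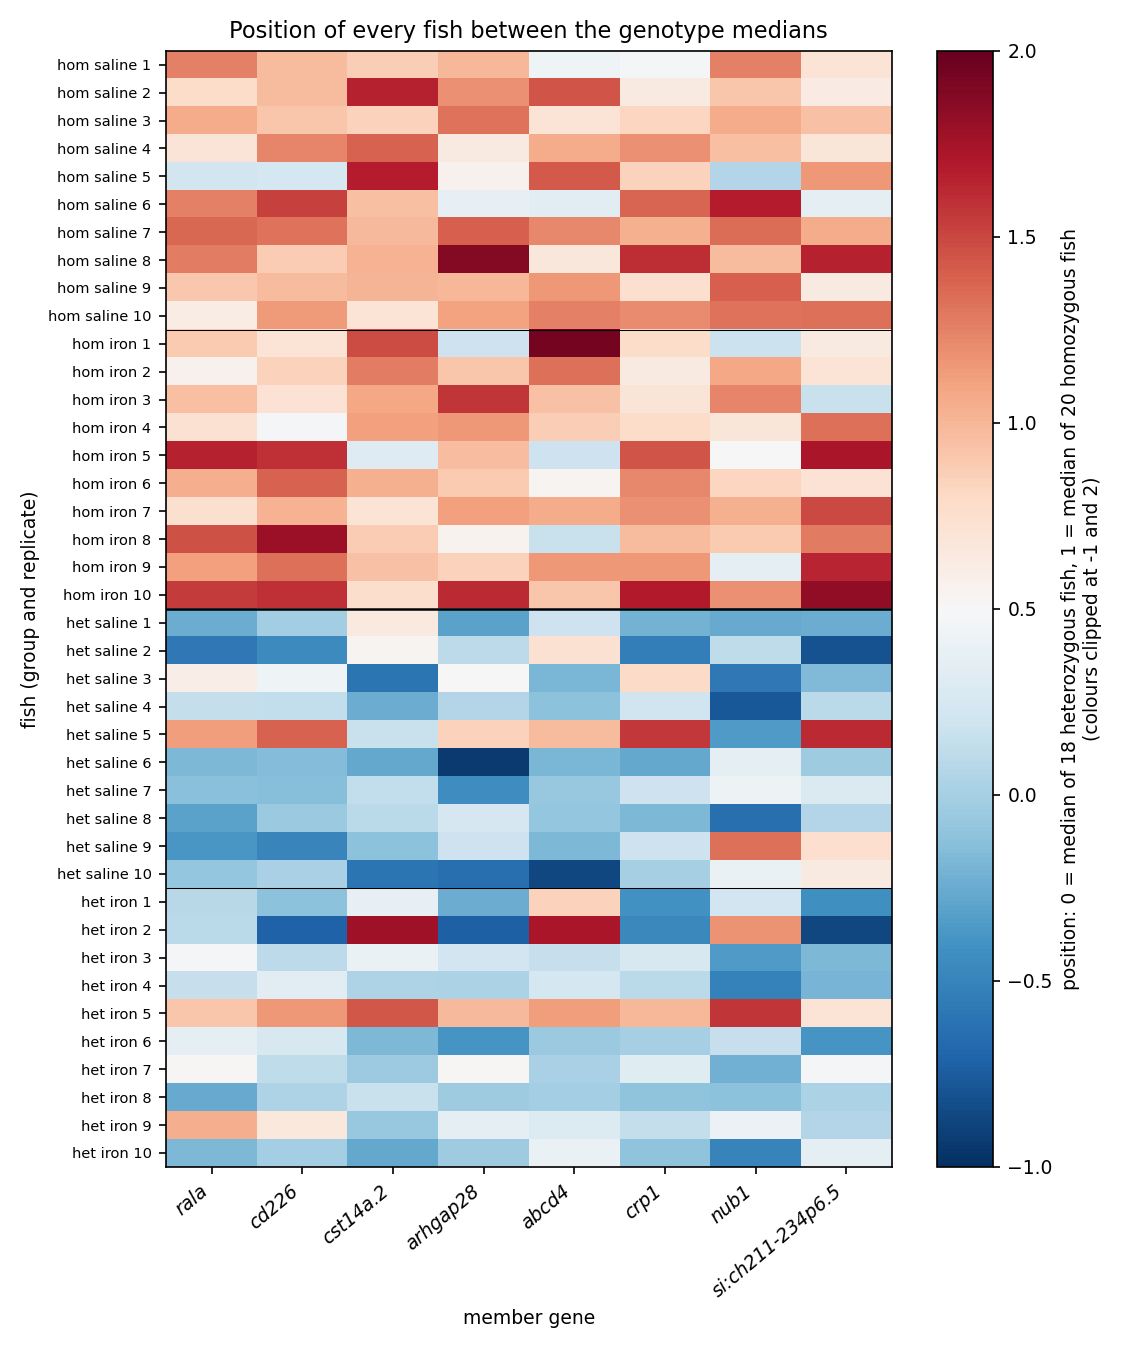
Position of every fish (rows, 10 per group) for every member (columns), where 0 is the median of the 18 heterozygous fish without the doubted libraries and 1 the median of the 20 homozygous fish, on the log2 CPM scale. Rows for heterozygous saline 5 and heterozygous iron 5 carry the colours of the homozygous rows for 6 and 8 members. Pale or opposite cells in other rows mark fish near or past the midpoint for that member.

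The direction of each member held in every stratum of the labels. Homozygous minus heterozygous mean log2 CPM had the same sign in both sexes, in both treatments, in 5 of 5 home tanks and in both ranges of fish number for all 8 members. For crp1 the difference ran from -1.26 to -0.39 over the tanks (-1.26 to -0.63 without the doubted libraries), for arhgap28 from -1.18 to -0.43 (-1.18 to -0.53), and for nub1 from 0.44 to 0.90 (0.44 to 1.02). Tanks are small, with 2 homozygous fish in tank 3, so no test was made within them. As the members were chosen on these same fish, agreement between strata is a description. Within males only, with 8 homozygous and 13 heterozygous fish, edgeR called 3 of the 8 members and 0.605% of all tested genes. Within females only, with 12 and 7, it called 0 of 8 members and 0% of genes (1545 at an unadjusted p under 0.05). Fold changes kept their signs in both, but in females that of arhgap28 was -0.33 and that of crp1 -0.51, against -0.73 and -0.80 over all fish. The female fit keeps its tank terms with only 2 heterozygous saline females. Female means, without tank terms, differed by -0.57 for arhgap28 and -0.73 for crp1, or by -0.66 and -0.86 without the doubted libraries.

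All 8 members were called in the averaged genotype comparison that chose them, against 4.31% of all tested genes in either direction, 2.03% higher and 2.28% lower. After saline 7 of 8 were called, all but si:ch211-234p6.5, against 1.25% of all genes. After iron 3 of 8 were called, cd226, crp1 and si:ch211-234p6.5, against 0.137%. Nothing is read from these counts, because the comparison selected the genes.

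Iron, which the choice of members did not use, gave no call for any of them. Among homozygous fish, iron over saline gave log2 fold changes from -0.38 to 0.02 and 0 of 8 members called, against 0% of all tested genes (0 of 19668, and 287 at an unadjusted p under 0.05). The furthest from 0 was nub1, with -0.38 (SE 0.22, edgeR p = 0.0909 and adjusted p = 1). Among heterozygous fish the values ran from -0.12 to 0.25, again with 0 of 8 members and 0% of genes called (662 at an unadjusted p under 0.05). The largest was abcd4, with 0.25 (SE 0.11, edgeR p = 0.0341 and adjusted p = 1). DESeq2 and limma voom also called 0 genes in both comparisons. An interval of 2 SE either way for crp1 ran from -0.43 to 0.32 in homozygous fish, and for rala from -0.24 to 0.12.

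The genotype difference of the members did not differ between treatments beyond its error. For the difference of the 2 iron changes, homozygous minus heterozygous, 0 of 8 members and 0% of genes were called by edgeR (498 at an unadjusted p under 0.05), and DESeq2 and limma voom also called 0. The largest were nub1, with -0.46 (SE 0.30), and si:ch211-234p6.5, with -0.31 (SE 0.19). All 3 members that were higher in homozygous fish had a smaller difference after iron. It was 0.23 against 0.45 after saline for cst14a.2, 0.21 against 0.48 for abcd4 and 0.37 against 0.83 for nub1. The difference was also smaller after iron for arhgap28 (-0.67 against -0.79), rala (-0.36 against -0.42) and cd226 (-0.65 against -0.68). It was larger for crp1 (-0.86 against -0.74) and si:ch211-234p6.5 (-0.67 against -0.37). No edgeR interaction p among the 8 was below 0.118 before adjustment.

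No member was called for sex. Female over male log2 fold changes ran from -0.12 to 0.04 with 0 of 8 called, against 2.44% of all tested genes. The lowest adjusted p was 0.304, for rala at -0.12 (SE 0.06).

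Fish number, the number each library carries as its title and which the labels do not explain, did move with 2 of the members. Over all genes, 21.4% differed between the 20 fish numbered above 40 and the 20 numbered up to 40, with 10 fish of each genotype in both ranges. The level of si:ch211-234p6.5 fell by 0.34 on the log2 scale in fish numbered above 40 (SE 0.07, edgeR adjusted p = 8.60e-04), and that of cst14a.2 fell by 0.18 (SE 0.06, adjusted p = 0.0277). The other members had log2 fold changes from -0.24, for crp1, to 0.08, for nub1, and were not called. The share of 2 in 8 is close to that of all genes. For comparison naglu fell by 0.59 (SE 0.07, adjusted p = 2.66e-07). With females alone neither was called and with males alone cst14a.2 was not, while the log2 fold changes stayed near their size, -0.20 in each sex for cst14a.2 and -0.32 in females for si:ch211-234p6.5.

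**Figure D3:**
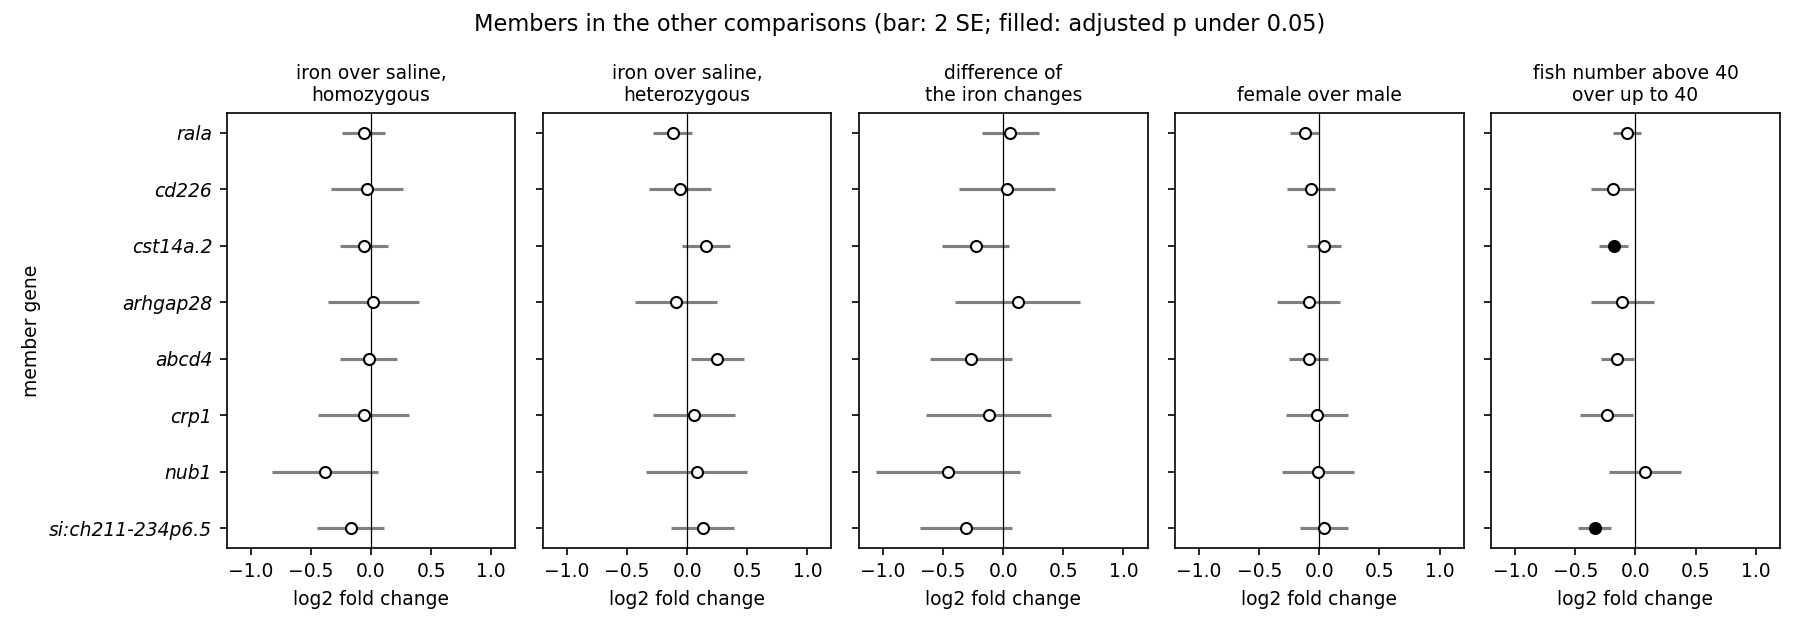
Log2 fold change of each member (horizontal axis) in the 5 comparisons that did not choose them: iron over saline in homozygous and heterozygous fish, the difference of these changes, female over male, and fish numbers above 40 over up to 40. Bars are 2 SE either way and filled points passed the adjusted threshold of 0.05, which only cst14a.2 and si:ch211-234p6.5 did, in the last panel.

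In the order of tested genes along chromosome 24, taken from RefSeq on the assembly GRCz12tu and without coordinates since the counts used GRCz11, the members did not form one block. Of the 7 placed members, 4 came after naglu: crp1 at 36 gene steps, si:ch211-234p6.5 at 38, nub1 at 63 and arhgap28 at 66. The other 3 came before it, abcd4 at 11 steps, cst14a.2 at 172 and cd226 at 219. The share of pairs in the 38 fish was 88.6% for abcd4, the nearest member, and 98.6% for cd226, the furthest. With all 40 fish these shares were 84.2% and 92%, below the 94.2% of arhgap28. Their relation to distance was not tested, and the shares rest on the difference that chose the members.

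The neighbours of the members were not called. In the gene order, the nearest gene on each side of the 7 placed members gave 13 different genes. Of them 0 passed edgeR's threshold, which at 4.31% of all genes called says little of so few. Tested genes without a place may lie closer. Beside cd226, dok6 had a log2 fold change of -0.13 and rttn 0.10. Beside cst14a.2, its tandem relative cst14a.1 had 0.21 (SE 0.09, edgeR adjusted p = 0.186) and mix23 had 0.05. Beside arhgap28, the laminin gene lama1 had -0.20 (SE 0.14) and zbtb14 -0.05, and beside nub1, xylb and rheb had 0.04 each. The genes klhl14 and obscnb on either side of abcd4 had 0.13 and -0.33. Between crp1 and si:ch211-234p6.5 lay mybpc2b, a myosin-binding protein of muscle, at 1.17 with an SE of 0.47 (adjusted p = 0.148). The outer neighbours of that pair, prr35 and zgc:154125, had -0.09 and 0.43.

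Chromosome 24 as a whole held 22 called genes among 410 tested, 5.37%, with 12 higher and 10 lower in homozygous fish. Rows that share a symbol were given the same place, so some of the 410 may lie elsewhere and gene steps may shift. The other placed genes had 4.33% called, and chromosome 24 ranked 5 among 25 chromosomes, below 11 (6.88%), 9 (6.28%), 15 (6.12%) and 17 (5.74%). Its median absolute log2 fold change was 0.085, against 0.079 over the other placed genes. Before naglu 12 of 333 tested genes were called, and after it 10 of 76. By distance, 6% of genes 1 to 25 steps from naglu were called (3 of 50), 16% at 26 to 50 steps (8 of 50), 6.58% at 51 to 100 (5 of 76) and 2.58% further away (6 of 233). Members are among these counts. Without them 2 of 49, 6 of 48, 3 of 74 and 4 of 231 genes were called, in that order. All genes over 100 steps away came before naglu. The shares come from the comparison that chose the members and were not tested.

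The called genes of chromosome 24 that are not members numbered 15, with 9 higher and 6 lower. Lower in homozygous fish were cluap1 (-0.37), a ciliary transport gene, the Rab11 effector rab11fip3 (-0.28), the intermediate filament gene vim (-0.51), the autophagy gene atg9b (-0.22) and tbc1d24 (-0.21). Higher were si:dkeyp-28d2.4 (1.04), acot9 (0.86), nrros (0.85), ppp1r17 (0.43), rmdn1 (0.42), the noggin-family gene nog2 (0.31) and serpinb1l3 (0.30). In the 38 fish the shares of pairs of these 12 genes in their direction ran from 77.5% for nrros to 95.3% for si:dkeyp-28d2.4. None of them divided the genotypes completely either. The symbols vim and acot9 each have a second row that was not called. It had 0.31 (SE 0.12) for vim, the opposite direction, and -0.06 (SE 0.05) for acot9. Rows of 1 symbol were given the same place, so which row lies there is not settled. At the threshold, eif1b lay just inside with 0.22 (SE 0.06, adjusted p = 0.0447) and pus3 just outside with -0.29 (SE 0.09, adjusted p = 0.0560).

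**Figure D4:**
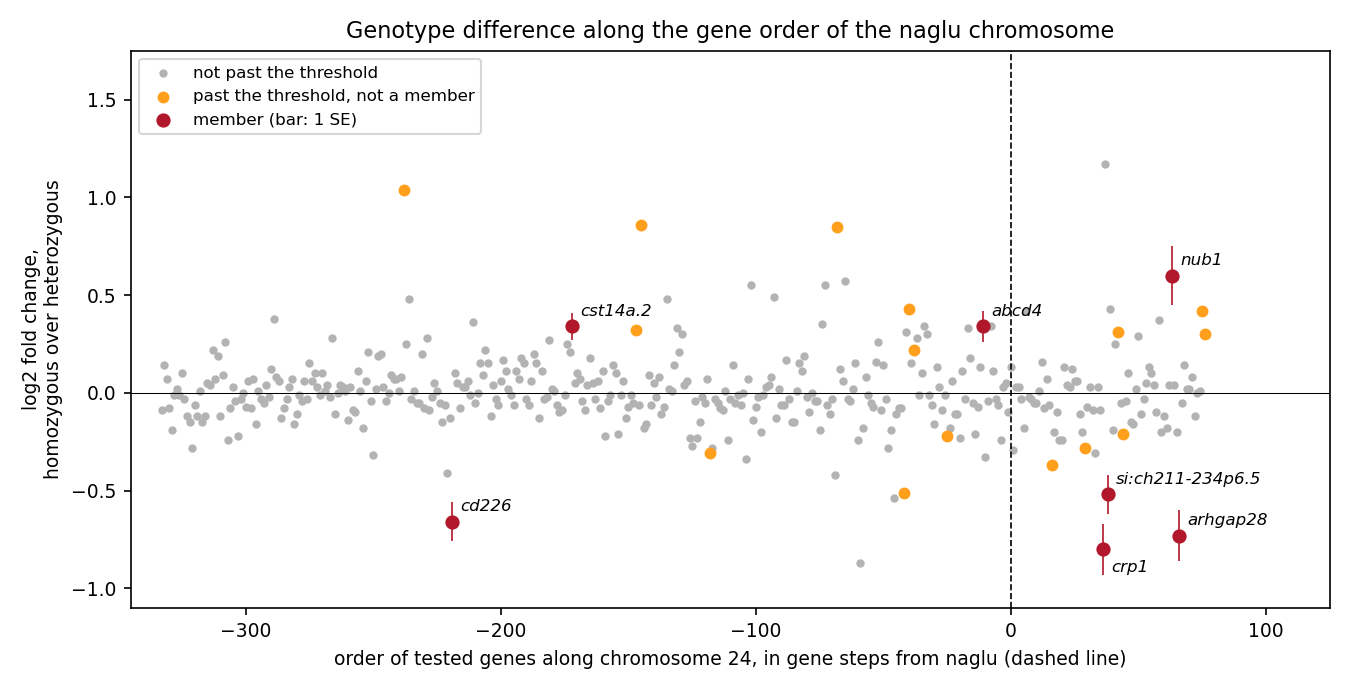
Log2 fold change, homozygous over heterozygous (vertical axis), for the 410 tested genes of chromosome 24 in gene order, as steps from naglu (horizontal axis, dashed line); members are red with 1 SE, other called genes orange. Called genes lie on both sides of naglu, 12 of 333 tested before it and 10 of 76 after it, with uncalled genes in grey between them. Members included, 6% were called at 1 to 25 steps, 16% at 26 to 50, 6.58% at 51 to 100 and 2.58% further away. Without members 2 of 49, 6 of 48, 3 of 74 and 4 of 231 genes were called, in that order. Over all tested genes the share was 4.31%.

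**Figure D5:**
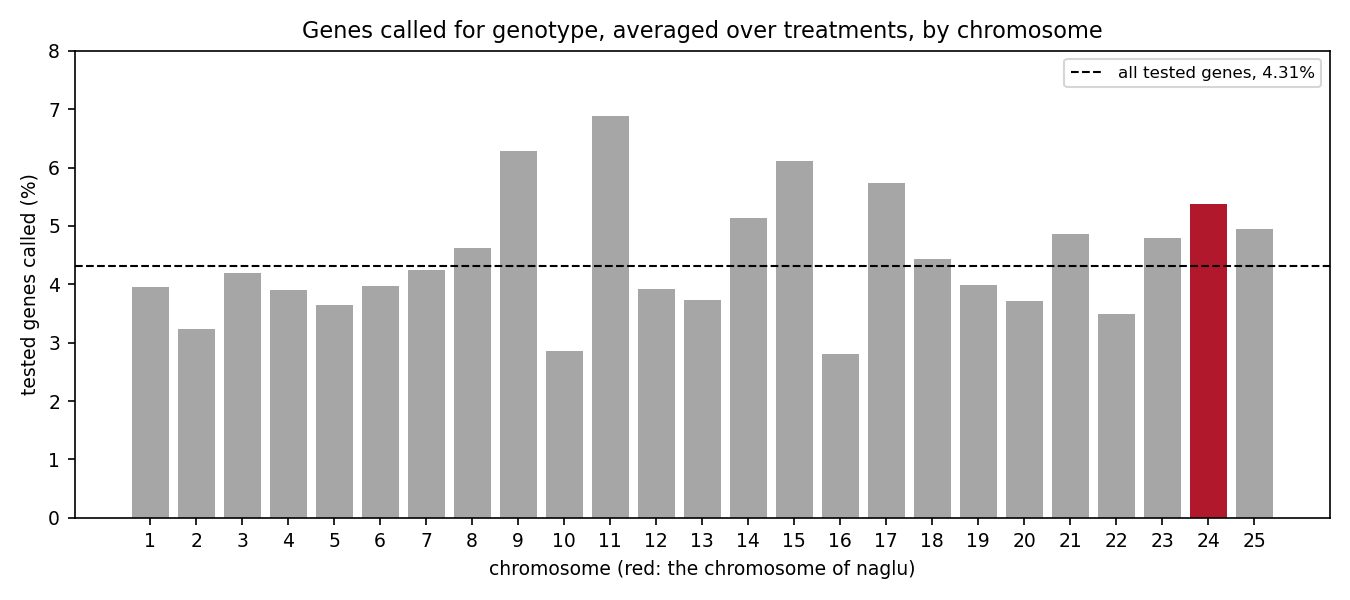
Share of tested genes called for genotype averaged over treatments (vertical axis, percent) on each chromosome (horizontal axis), with the share over all tested genes as a dashed line at 4.31%. Chromosome 24, in red, stands at 5.37%, below chromosomes 11, 9, 15 and 17.

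The members also varied among fish of the same group. After group, sex and tank were removed, the residual log2 CPM of rala, cd226 and crp1 correlated with each other over the 40 fish at r = 0.70 to 0.76, and at 0.56 to 0.67 over the 38. Over the 40 fish crp1 also had r = 0.69 with si:ch211-234p6.5 and 0.60 with arhgap28. Another pair was cst14a.2 and abcd4, at 0.81 over 40 fish and 0.78 over 38. The groups were less distinct over the 38 fish, where cst14a.2 had r = 0.61 with cd226 and 0.51 with crp1, and abcd4 0.55 with cd226, against 0.28, 0.17 and 0.15 over all 40. The residuals of nub1 had r between -0.15 and 0.26 with every other member in both sets of fish. These correlations share libraries, depth and scaling and are a description.

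Group was removed by label, so residuals over 40 fish can keep a genotype difference in the doubted libraries. In these residuals over 40 fish, the genes most like each member differed in kind. For cd226 they were plp1b, plp2b and cldnk (r = 0.80 to 0.81), of which plp1b and cldnk are myelin genes, and for crp1 they were zgc:113337, plp2b and myrf (0.83 to 0.84), where myrf drives myelin genes in mammals. For rala they were cd59a, si:ch211-212o1.2 and tlcd5 (0.86 to 0.87). Without the doubted libraries rala kept the same genes, whereas those of cd226 became eif4enif1, irs4a and nf1 (-0.85 to -0.81) and those of crp1 serpine2, sox4 and fhl3, at 0.83, -0.80 and 0.78. For cst14a.2 they were cicb (-0.87), the copper chaperone gene atox1 (0.84) and sec61g (0.83), for abcd4 cst14a.2 (0.81), ecpas (-0.80) and cyb5a (0.80), and for si:ch211-234p6.5 syvn1 (-0.75), pdia3 (-0.73) and rnf24 (0.72). For nub1 the values were lower, 0.63 for prelid1b, 0.58 for ddx10 and 0.57 for si:ch211-183d21.2. The gene most like arhgap28 was lama1, next to it in the gene order, at 0.69 over 40 fish and 0.72 over 38. Over the 40 fish angpt2b (0.67) and dnah3 (-0.63) followed. Of these 3 genes each, 2 for cst14a.2, 1 each for si:ch211-234p6.5, nub1 and arhgap28 and 0 for abcd4 were again among the 3 most alike over the 38 fish. Of the 24 places, 5 were taken by genes on chromosome 24 (4 with 38 fish), where 2.65% of placed tested genes lie.

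Oligodendrocyte markers moved with genotype in the same direction as the 5 members that were lower in homozygous fish. All 8 tested markers of these myelin-forming cells fell in homozygous fish, with a median log2 fold change of -0.51, and their summed level was 9170, 14300 and 19600 CPM (lowest, median, highest) in homozygous and 11600, 20900 and 30900 CPM in heterozygous fish. None of the markers was at 0. The part of these cells in the differences of the 5 members was not tested. In whole-brain RNA, fewer cells of a type and less RNA per cell cannot be told apart. Markers of T and NK cells, which carry CD226 in mammals, summed to 2.96, 5.55 and 21.4 CPM in homozygous and 1.32, 2.75 and 8.28 CPM in heterozygous fish, the opposite direction to cd226. Of their 5 tested genes 1 rose, ccr9 by 1.89 (SE 0.34, edgeR adjusted p = 6.66e-04), and none fell. The rest of the 5 were low, with a mean log2 CPM of -1.22 to 0.23, and were not called. Microglia and macrophage markers had 1 of 10 higher, and neuron markers 0 of 3 called; neutrophil markers were too low to test.

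Few pathway partners of the members were called. With 4.31% of all tested genes called, a short list with none called says little. Each list is given without its member, beside a median log2 fold change of -0.002 over all tested genes. Of 22 other genes for Ral GTPases, their exchange factors and inhibitors and the exocyst, 2 fell and none rose, with a list median of -0.05; the Ral exchange factor genes ralgds and ralgps1 fell by 0.49 (SE 0.08, edgeR adjusted p = 3.13e-04) and 0.22 (SE 0.06, adjusted p = 0.0344). None of 13 other cobalamin and peroxisomal transporter genes was called, nor of 2 other pentraxins, of 18 genes of NEDD8 conjugation and removal, or of 5 genes for CD226 ligands and adhesion partners, with list medians of 0.01, -0.05, 0.03 and 0.10.

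Nor was any cystatin beside cst14a.2 called, 0 of 3: cst14b.1 had 0.43 (SE 0.13, adjusted p = 0.0506), cst14a.1 had 0.21 and cst3 had -0.09. The proteases were different. Of 10 genes for cysteine proteases that cystatins inhibit or act beside, 7 rose and none fell, with a median of 0.70. They included ctsz by 0.78 (SE 0.13), ctsc by 0.75 (SE 0.13), ctsla by 0.46 (SE 0.08) and the legumain gene lgmn by 0.32 (SE 0.05), with edgeR adjusted p from 1.90e-04 to 8.04e-04. None of the 10 lies on chromosome 24. Microglia express several of these proteases, and their markers had a summed median of 975 CPM in homozygous and 917 CPM in heterozygous fish and a median log2 fold change of 0.37 over 10 genes; their part in these changes was not tested. Of 10 enzymes of heparan sulfate breakdown, naglu among them, 3 rose, gnsb by 0.90 (SE 0.14, adjusted p = 1.41e-04), hpse by 0.46 (SE 0.09, adjusted p = 0.00265) and gns by 0.11 (SE 0.03, adjusted p = 0.0254), and none fell.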

How the data were processed

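The authors deposited unnormalised whole-number counts for each Ensembl gene in 40 libraries, and all 40 columns were used; columns are titled by fish number, which the labels tie to genotype and treatment. The build GRCz11 and the tools featureCounts, STAR, fastp and UMI-tools are named per the submitters' processing notes. Their versions, roles and strand handling were not given in the sources used, so reads of a gene and of one overlapping or antisense to it cannot be separated. Symbols matched 28988 genes (90.4%), and RefSeq's gene table (assembly GRCz12tu) gave a chromosome to 19428 (60.6%).

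edgeR 4.0.16 (R 4.3.3) kept 19668 genes with filterByExpr, scaled libraries by TMM and fitted group, sex and tank (9 coefficients, 31 residual degrees of freedom). Contrasts were tested by quasi-likelihood with Benjamini-Hochberg adjustment at 0.05. SE is the absolute log2 fold change over the root of F. Alternatives used DESeq2 1.42.0, limma 3.58.1 voom and the other settings of the closing section.

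The members, lists, doubted libraries and tests were chosen with earlier results of these data known. Named are the members, naglu, up to 12 other called genes of chromosome 24 by smallest p, each member's nearest tested neighbours, up to 4 called genes per list, the 3 genes most alike each member, and the genes at the threshold. Cell type markers came from a fixed list. The result of 1 gene list is not reported here.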

Additional observations from a re-analysis of the deposited data

Results flagged for a closer look

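In 3 of 36 sets of 10 fish (each member and naglu in each group) 1 fish stood far from the other 9, its gap to the nearest being at least 0.502 of the group's range, past Dixon's critical value, which chance exceeds in about 1 set in 20. The values were cd226 at 3.72 log2 CPM in homozygous saline 5, the highest of its group; cd226 at 2.86 in the library labelled heterozygous saline 5, the lowest of its group; and nub1 at 2.57 in homozygous saline 5, the lowest of its group. Each lay toward the levels of the other genotype.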

How the results depend on the processing

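All 8 members kept their direction in the averaged genotype comparison under every alternative run, and kept their calls in all but the single-sex fits: other size factors, 2 other filters, DESeq2, limma voom, no terms for sex and tank, a term for fish number, and leaving out the libraries labelled heterozygous saline 5 and iron 5. Over these the log2 fold change ran from -0.91 to -0.77 for crp1, from -0.83 to -0.73 for arhgap28 and from 0.59 to 0.72 for nub1. With males only 3 members were called and with females only 0; these fits hold fewer fish. With females only, of which 2 were heterozygous saline fish, the log2 fold changes were also smaller for arhgap28 (-0.33), crp1 (-0.51), si:ch211-234p6.5 (-0.30) and nub1 (0.40). For fish number, called members numbered 2, but 1 with males only and 0 with females only, and nub1 turned from 0.08 to -0.16 with females only, called in neither.

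Counts over all genes moved more. The averaged genotype comparison called 847 genes, 2499 without terms for sex and tank, 1637 without the doubted libraries, 122 in males and 0 in females. After saline the 246 became 2237, 586, 0 and 0 in that order, and 494 with DESeq2. After iron the 27 became 107, 196 and 0 (the last in females), and 141 with DESeq2. The sex comparison called 479, 285 without the doubted libraries and 900 with DESeq2, and fish number 4201, 323 in males and 793 in females. The causes were not tested. No paired analysis was possible because replicate numbers only name libraries, each a different fish. Depth limits arhgap28 most, at a median of 59 counts.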

Other observations

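Variation shared along a chromosome was counted after the values had been seen. For every placed tested gene, the 100 genes with the highest absolute residual correlation over the 38 fish were taken, and those on its own chromosome counted. The median was 5 over all 15497 placed genes and 11 over the 410 genes of chromosome 24, the highest median of the 25 chromosomes, with 10 genes and 45 genes at the 90th percentile. Chromosome 3 had a median of 6 and a 90th percentile of 56, and chromosome 18 a median of 4 and a 90th percentile of 19. Residuals share libraries and scaling, and no test was made.

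The members differed in this count. Of the 100 genes most like it, cst14a.2 had 17 on chromosome 24, nub1 13, abcd4 12 and arhgap28 8, of which 6 of the 8 for arhgap28 lay within 25 gene steps. The gene si:ch211-234p6.5 had 4, rala and cd226 1 each, and crp1 0. With all 40 fish the counts were 12 for cst14a.2, 13 for abcd4, 11 each for nub1 and arhgap28, 3 each for crp1 and si:ch211-234p6.5, and 2 each for rala and cd226.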
